A study of Aedes aegypti with 8 samples.

Results

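Peptidoglycan recognition proteins (PGRPs) are the proteins with which insects sense the cell walls of bacteria. Their values are given here for midguts of the yellow fever mosquito, Aedes aegypti, exposed to heme. The rule named 7 identifiers. Of these, 4 were rows of the count table, out of 19712 identifiers in all: PGRP-LC (AAEL014640), PGRP-LB (AAEL010171) and the short PGRPs AAEL009474 and AAEL007039. The remaining 3, AAEL013112, AAEL011608 and AAEL007037, were not analysed here. The PGRP names come with the rule that chose the genes, and the other sources used here do not annotate these identifiers.

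The midguts came from sugar-fed female mosquitoes of the Liverpool strain, aged 3 to 5 days. After dissection they were held for 35 h in Schneider's Drosophila medium with 10 µM heme (added as hemin chloride) or with 0 µM heme. PolyA RNA was then sequenced. Heme is the iron-containing group set free when hemoglobin is digested. Each treatment had 4 biological replicates, each a pool of midguts, for 8 libraries. Both treatments lacked serum, and both media held penicillin-streptomycin. Per the study's methods, the mosquitoes had also been fed penicillin-streptomycin in sucrose before dissection. Neither group was therefore a midgut with its bacteria left untreated. Total counts per library ranged from 46027977 to 56947544. The study set 0 µM heme replicate 1 and 10 µM heme replicate 2 apart from their groups in its scaling plot. Fold changes of each PGRP without this pair are given with the other processing choices at the end.

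PGRPs bind peptidoglycan, the mesh of sugars and peptides in bacterial cell walls. PGRP-LC is known from Drosophila and from mosquitoes as a membrane receptor that switches on the immune deficiency (IMD) pathway, whose transcription factor induces antimicrobial peptides. PGRP-LB, in Drosophila, is an amidase that cuts peptidoglycan and so dampens the same pathway. Short PGRPs are as a rule secreted, and in Drosophila some signal to the Toll pathway while others are amidases. In the mosquito midgut these genes matter because gut bacteria multiply after a blood meal, when heme is also released.

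None of the 4 PGRPs changed beyond the spread between replicates upon heme exposure. In the edgeR exact test 0 of 4 were called at an adjusted p of 0.05, where 4.63% of the 11095 genes tested were called. At an unadjusted p of 0.05, which 13.3% of genes passed in the exact test, that test passed 0 of the 4. With only 4 genes, a count of 0 lies near either share. Over the 17 alternatives only PGRP-LC, 1 of the 4, passed this level, and it did so in 3. These were limma-voom, as for 19.9% of genes, the quasi-likelihood test with a replicate block, as for 22.0% of genes, and the exact test without 0 µM heme replicate 1, as for 14.6% of genes (log2 fold change of PGRP-LC 0.29). The groups overlapped in all 4, while they did not overlap in 10.2% of genes tested. All 4 passed the filter on low counts. The median log2 fold change was -0.17 over the 4 and 0.019 over all tested genes. Levels are in CPM, the count as a share of the TMM-scaled library total in parts per 1000000 (TMM being edgeR's trimmed-mean scaling), and fold changes are 10 µM minus 0 µM heme. Since whole midguts were sequenced, fewer cells of a type and less RNA per cell cannot be told apart.

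PGRP-LC, the receptor, stood at 74.3, 61.7, 62.1 and 59.7 CPM in 10 µM heme replicates 1 to 4, against 64.5, 56.5, 47.9 and 54.2 CPM in 0 µM heme replicates 1 to 4. On the TMM scale, all 4 heme-exposed libraries lay above the mean of the 0 µM libraries, but only 10 µM heme replicate 1 lay above every one of them. The means were 64.5 ± 6.66 CPM at 10 µM heme and 55.8 ± 6.84 CPM at 0 µM heme (SD, n = 4 each). The log2 fold change was 0.21 ± 0.11 (SE; edgeR exact test, adjusted p = 0.606). With library totals in place of TMM scaling it was 0.12 (edgeR exact test, adjusted p = 0.886). The 95% interval for PGRP-LC in limma-voom with quality weights ran from 0.015 to 0.42, that is from 1.01-fold to 1.34-fold higher (limma-voom, adjusted p = 0.216). PGRP-LC was measured from 2607 to 3639 reads a library, where counting alone gives a coefficient of variation of 1.72% at 10 µM and 1.84% at 0 µM heme. The spread between replicates was larger, 10.3% at 10 µM and 12.3% at 0 µM heme.

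Relative to AAEL009496 (rpS7), the reference gene of the study's RT-qPCR, PGRP-LC counts were 3.61%, 3.70%, 3.31% and 3.99% in the heme-exposed libraries and 3.29%, 3.89%, 2.72% and 3.25% in the 0 µM libraries. The groups overlapped on this scale too. AAEL009496 itself had a log2 fold change of 0.054 ± 0.13 (SE; edgeR exact test, adjusted p = 0.987).

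PGRP-LB, the amidase, had nearly the same mean in both treatments. It stood at 21.0, 16.9, 20.3 and 12.2 CPM in 10 µM heme replicates 1 to 4, against 17.7, 16.7, 19.6 and 18.9 CPM in 0 µM heme replicates 1 to 4. Of the heme-exposed libraries, 2 lay above all 0 µM libraries and 1, replicate 4, lay below all of them. The CPM means were 17.6 ± 4.05 at 10 µM heme and 18.2 ± 1.27 at 0 µM heme (SD, n = 4 each). The log2 fold change was -0.052 ± 0.19 (SE; edgeR exact test, adjusted p = 0.987), and -0.16 with library totals in place of TMM scaling (edgeR exact test, adjusted p = 0.865). In limma-voom it was -0.033, with a 95% interval from -0.35 to 0.28, that is from 0.785-fold to 1.22-fold. The replicates differed by 23.0% (coefficient of variation) at 10 µM and by 6.98% at 0 µM heme. Whether the treatments differ in this spread was not tested. Without 10 µM heme replicate 4 the mean at 10 µM heme was 19.4 ± 2.21 CPM (SD, n = 3), and the log2 fold change turned to 0.090 (edgeR exact test, adjusted p = 0.913).

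The counts of the amidase were also set against those of the receptor within each library, a ratio on which library scaling has no effect. PGRP-LB counts were 28.3%, 27.4%, 32.7% and 20.4% of PGRP-LC counts in 10 µM heme replicates 1 to 4. In 0 µM heme replicates 1 to 4 they were 27.5%, 29.6%, 41.0% and 34.8%. The groups overlapped, with the highest value in 0 µM heme replicate 3 and the lowest in 10 µM heme replicate 4. Gene lengths were not used, so this ratio compares libraries and says nothing of which gene has more transcripts.

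**Figure D1:**
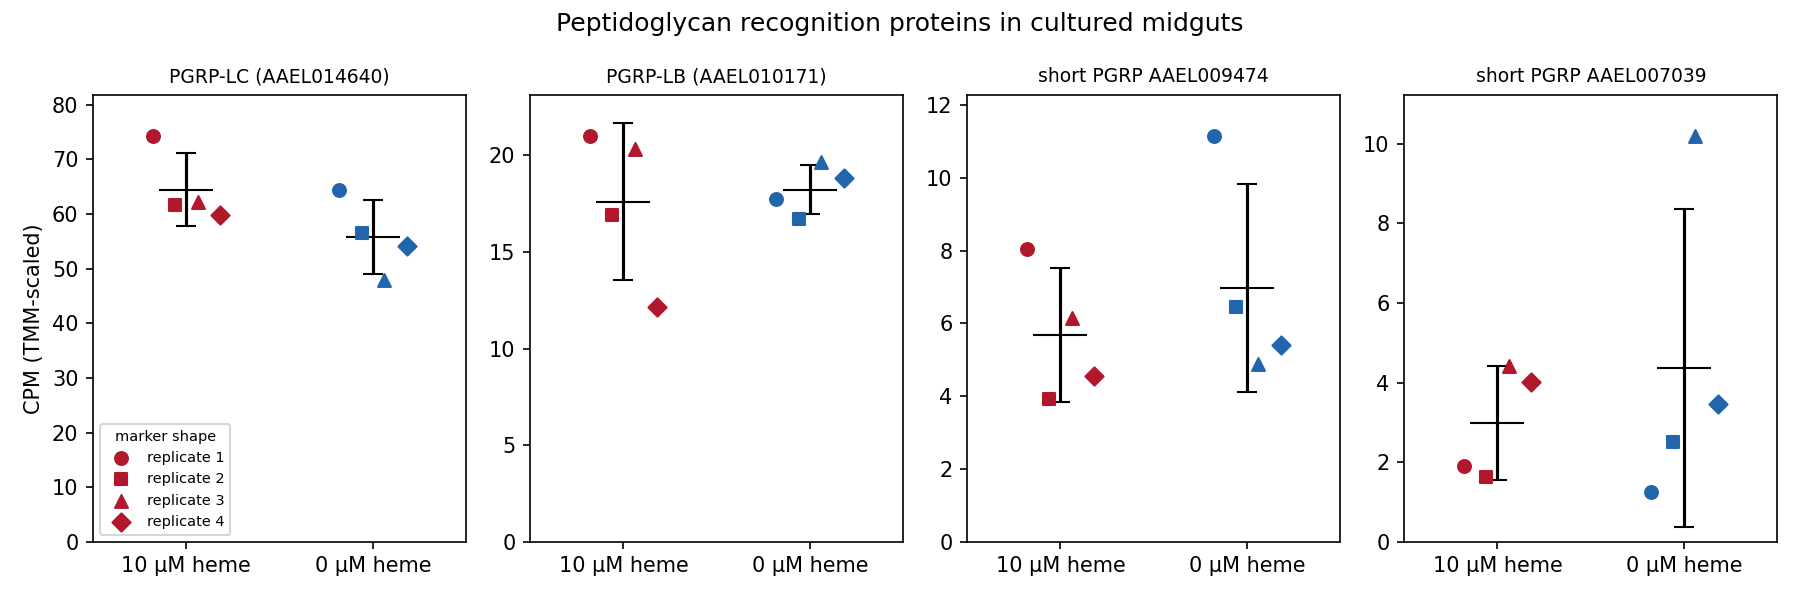
CPM (TMM-scaled) of the 4 PGRP genes in each library, with 10 µM heme in red and 0 µM heme in blue; marker shape gives the replicate number, and black bars the mean and SD (n = 4). The groups overlap in every panel, and AAEL007039 in 0 µM heme replicate 3 (10.2 CPM) stands far above the other 7 libraries.

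The short PGRPs varied more between replicates than between treatments. AAEL009474 stood at 8.05, 3.94, 6.16 and 4.55 CPM in 10 µM heme replicates 1 to 4, against 11.2, 6.45, 4.89 and 5.40 CPM in 0 µM heme replicates 1 to 4. Replicate 1 was the highest library of each treatment, and 2 of 4 heme-exposed libraries lay below all 0 µM libraries. The means were 5.67 ± 1.84 CPM at 10 µM heme and 6.97 ± 2.86 CPM at 0 µM heme (SD, n = 4 each). The log2 fold change was -0.30 ± 0.35 (SE; edgeR exact test, adjusted p = 0.855). In limma-voom it was -0.16, with a 95% interval from -0.67 to 0.35. Without 10 µM heme replicate 1 the 10 µM mean was 4.88 ± 1.15 CPM (SD, n = 3). The negative sign was lost when 0 µM heme replicate 1 was left out and 10 µM heme replicate 1 was kept. Without 0 µM heme replicate 1 the 0 µM mean was 5.58 ± 0.795 CPM (SD, n = 3) and the log2 fold change 0.022 (edgeR exact test, adjusted p = 0.996). Without 0 µM heme replicate 1 and 10 µM heme replicate 2 the log2 fold change was 0.16 (edgeR exact test, adjusted p = 0.888).

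AAEL007039 had the widest spread of the 4. It stood at 1.91, 1.62, 4.41 and 4.02 CPM in 10 µM heme replicates 1 to 4, against 1.26, 2.51, 10.2 and 3.47 CPM in 0 µM heme replicates 1 to 4. The highest and the lowest of the 8 libraries were both 0 µM libraries, 8.10-fold apart, so the heme-exposed libraries lay wholly within the range of the unexposed ones. The means were 2.99 ± 1.43 CPM at 10 µM heme and 4.36 ± 4.00 CPM at 0 µM heme (SD, n = 4 each), while the medians were 2.97 and 2.99 CPM in the same order. The log2 fold change was -0.54 ± 0.72 (SE; edgeR exact test, adjusted p = 0.861). In limma-voom it was -0.34, with a 95% interval from -1.46 to 0.78, or 0.363-fold to 1.72-fold. Without 0 µM heme replicate 3 the 0 µM mean was 2.41 ± 1.11 CPM (SD, n = 3) and the log2 fold change 0.31 (edgeR exact test, adjusted p = 0.997).

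The spread of AAEL007039 was not one of counting. It had 57 to 555 reads a library, for which counting gives a coefficient of variation of 7.92% at 10 µM and 6.47% at 0 µM heme, against 47.7% and 91.7% between replicates in the same order. For AAEL009474, with 221 to 505 reads, counting gives 5.86% and 5.25%, against 32.5% at 10 µM and 41.0% at 0 µM heme. Of the identifiers listed as midgut serine proteases, AAEL007432 had its highest library of each treatment in the same replicate as AAEL007039. It stood at 63.7 CPM in 10 µM heme replicate 3 and 18.0 to 26.1 CPM in the other heme-exposed libraries, and at 129 CPM in 0 µM heme replicate 3 and 4.29 to 12.9 CPM in the other 0 µM libraries. The other identifiers of that list in the table did not share both peaks. AAEL007818 and AAEL001703 were highest in replicate 1 of each treatment. AAEL013284 and AAEL010196 were highest in 10 µM heme replicate 2 and 0 µM heme replicate 4. AAEL013712 was highest in 10 µM heme replicate 3 but in 0 µM heme replicate 2. AAEL007432 was singled out after its values were seen, and its part in the spread of AAEL007039 was not tested.

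How far replicates of the same treatment differed was then set against the other genes. edgeR's biological coefficient of variation, the spread left after counting noise, was 13.4% for PGRP-LC and 18.1% for PGRP-LB. The trend over all tested genes stood at 16.7% and 19.0% at their levels. It was 30.2% for AAEL009474 and 56.3% for AAEL007039, where the trend gave 21.0% and 22.4%. Ranked by the ratio of its own value to the trend, AAEL007039 exceeded 98.8% of tested genes and AAEL009474 exceeded 92.9%. PGRP-LB exceeded 70.2% and PGRP-LC 50.3%, although both lay under the trend, as most tested genes did. These ranks describe 4 genes and are no test of short against long PGRPs.

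**Figure D2:**
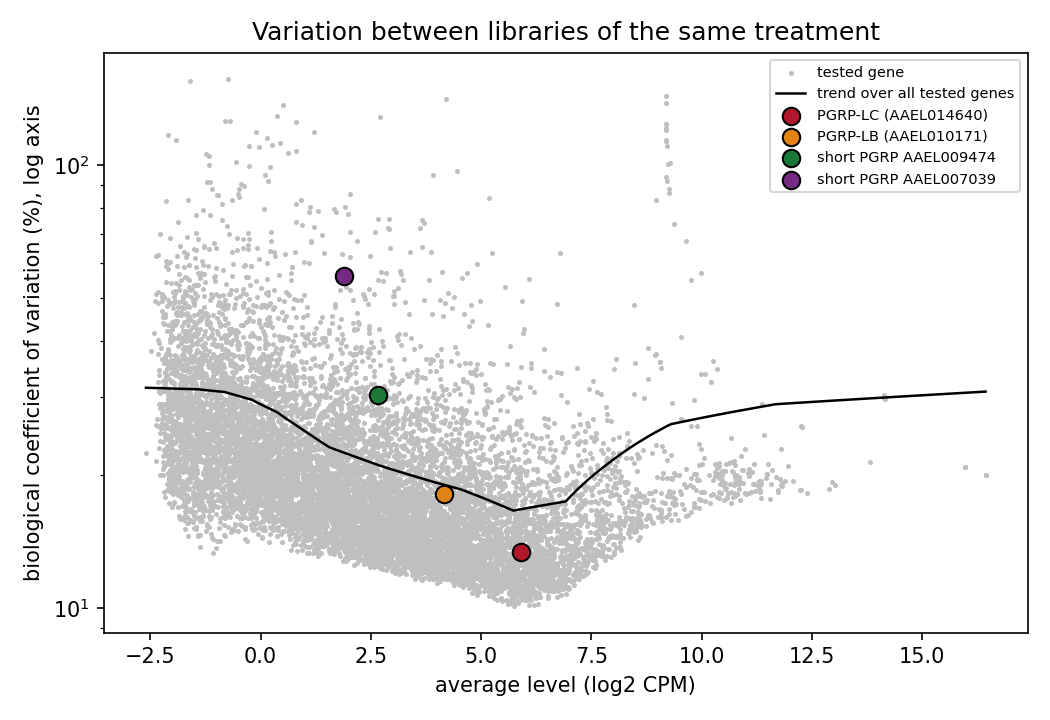
Biological coefficient of variation (percent, log axis) against average level (log2 CPM) for each of the 11095 tested genes in grey, the trend as a line, and the 4 PGRPs as large points. PGRP-LC (13.4%) and PGRP-LB (18.1%) lie just under the line, AAEL009474 (30.2%) above it and AAEL007039 (56.3%) far above it.

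The pattern over the 8 libraries also differed among the PGRPs. Likeness was measured as the root mean square difference of log2 CPM after each gene was centred on its own mean, over 8 libraries, where 0 is an identical pattern. By this distance PGRP-LC and PGRP-LB were closest (0.28), near the median of 0.30 from PGRP-LC to the other tested genes. The short PGRPs were farthest apart (1.18), with AAEL007039 at 1.02 from PGRP-LC and 0.91 from PGRP-LB. The distance grows with the spread of the genes compared. The root mean square of each gene about its own mean was 0.17 for PGRP-LC and 0.23 for PGRP-LB. It was 0.45 for AAEL009474 and 0.89 for AAEL007039. The order of the distances therefore does not show which PGRPs share a pattern. The highest library of each treatment was replicate 1 for PGRP-LC and AAEL009474 and replicate 3 for AAEL007039, while for PGRP-LB it was 10 µM heme replicate 1 and 0 µM heme replicate 3.

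Among all other tested genes, the pattern most like that of PGRP-LC was found in AAEL013394 (0.045) and AAEL002562 (0.059), against a median of 0.30 over all genes. For PGRP-LB they were AAEL012458 (0.083) and AAEL005315 (0.090, median 0.34). For AAEL009474 they were AAEL013885 and AAEL025687 (0.12 each, median 0.51). AAEL013885 shared its high replicate 1, with 783 CPM at 10 µM heme against 444 to 629 in the other heme-exposed libraries, and 1087 CPM at 0 µM heme against 536 to 602 in the other 0 µM libraries. For AAEL007039 they were AAEL017056 (0.24) and AAEL007060 (0.39, median 0.93). AAEL017056 shared its peak, with 10.2 CPM in 0 µM heme replicate 3 against 1.50 to 3.45 CPM in the other 0 µM libraries. These 8 genes were chosen by their likeness over the same 8 libraries. Shared peaks and fold changes near those of the PGRPs therefore follow from the choice. None of the 8 was called (edgeR exact test, adjusted p = 0.608 to 1.0), which is no separate result.

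The genes that act downstream of peptidoglycan recognition were examined as 2 lists, drawn up from general knowledge of the IMD and Toll pathways and of antimicrobial peptides. Apart from AAEL007768 (MYD) and AAEL006571 (PELLE), which the study's tables annotate as Toll pathway genes, the listed identifiers had no annotation in the sources used here and are given without names. Of 14 identifiers listed as IMD and Toll signalling genes, 13 were in the table and tested. Of these, 0 were called in either direction (edgeR exact test), where 4.63% of all tested genes were called. At an unadjusted p of 0.05 in the same test 2 of the 13 passed, as did 13.3% of all tested genes. The log2 fold changes of the 13 ranged from -0.30 to 0.31, with a median of -0.039. MYD stood at 8.48 ± 0.753 CPM at 10 µM heme and 8.91 ± 0.440 CPM at 0 µM heme (SD, n = 4 each; edgeR exact test, adjusted p = 0.958). PELLE stood at 6.49 ± 0.444 CPM at 10 µM heme and 7.08 ± 0.581 CPM at 0 µM heme (SD, n = 4 each; edgeR exact test, adjusted p = 0.891).

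The groups did not overlap in 2 of the 13, against 10.2% of all tested genes, and these 2 were named after their values were seen. AAEL012510 stood at 46.1 to 55.9 CPM at 10 µM heme and 38.8 to 41.8 CPM at 0 µM heme (log2 fold change 0.31 ± 0.064, SE; edgeR exact test, adjusted p = 0.128). AAEL007624 stood at 44.5 to 51.1 CPM at 10 µM heme and 54.0 to 65.0 CPM at 0 µM heme (log2 fold change -0.30 ± 0.073, SE; edgeR exact test, adjusted p = 0.154). DESeq2, which called 6.95% of the genes it gave an adjusted p, called both (adjusted p = 0.0206 and 0.0394), and over the alternatives the adjusted p ranged from 0.0206 to 0.558 for AAEL012510 and from 0.0394 to 0.445 for AAEL007624.

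Of 13 identifiers listed as antimicrobial peptides, 6 were in the table, 4 were tested and 1 was called, lower with heme, where 2.42% of all genes tested were called lower. The median log2 fold change of the 4 was -0.53. The called gene was AAEL003832, with counts of 45, 42, 36 and 45 in 10 µM heme replicates 1 to 4 and of 70, 163, 92 and 125 in 0 µM heme replicates 1 to 4. Its groups did not overlap, and it fell by 1.37 ± 0.22 on the log2 scale (SE; edgeR exact test, adjusted p = 4.39e-05). The call held in all 17 alternatives (adjusted p = 5.23e-06 to 0.0181).

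The other 3 tested peptide genes went in both directions and were not called at an adjusted p of 0.05 in the exact test on 8 libraries. At an unadjusted p of 0.05 in that test, 3 of the 4 peptide genes passed, the called one included. Of all tested genes 13.3% passed this level. AAEL003857 had a log2 fold change of -1.16 ± 0.50 (SE; edgeR exact test, adjusted p = 0.0976), and AAEL004522 one of 0.98 ± 0.48 (SE; edgeR exact test, adjusted p = 0.185). AAEL004833 had one of 0.092 ± 0.27 (SE; edgeR exact test, adjusted p = 0.979). The highest library of AAEL003857 was 0 µM heme replicate 1, at 17.7 CPM against 3.58 to 8.86 CPM in the other 0 µM libraries, and this library was also the highest for AAEL009474. Untested AAEL003841 had 0 to 11 reads a library and AAEL003389 had 0 or 1.

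**Figure D3:**
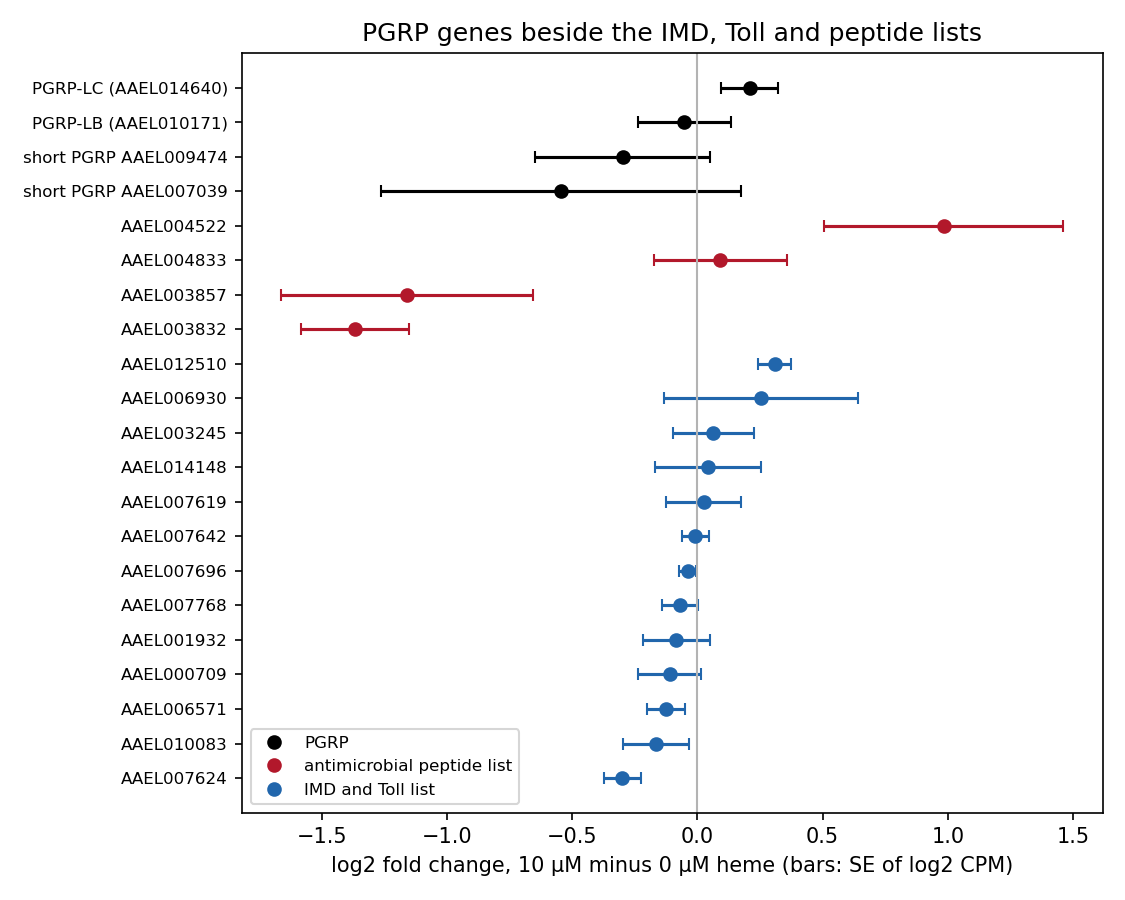
Log2 fold change (10 µM minus 0 µM heme) of the 4 PGRPs in black, the 4 tested peptide genes in red and the 13 tested IMD and Toll genes in blue, with SE bars (n = 4 libraries each). The PGRPs lie between -0.54 and 0.21, and AAEL003832 at -1.37 is the called gene.

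PGRPs are also made by fat body and by hemocytes, so lists of midgut, hemocyte, fat body and ovary markers, drawn up in the same way and likewise without annotation here, were examined by level. All 6 identifiers in the table from the midgut list of serine proteases were detected in each library. Their summed level was 64060 to 93290 CPM at 10 µM heme and 75730 to 88810 CPM at 0 µM heme. Nearly all of this sum came from AAEL007818 and AAEL001703. The 6 in the table from the hemocyte list had at most 6 reads in any library, with a sum of 0.125 to 0.288 CPM at 10 µM heme and 0.0694 to 0.176 CPM at 0 µM heme. The 3 of the fat body list summed to 1.19 to 1.66 CPM at 10 µM heme and 0.827 to 1.73 CPM at 0 µM heme. The 2 of the ovary list summed to 12.9 to 14.3 CPM at 10 µM heme and 13.7 to 15.2 CPM at 0 µM heme, nearly all of it from AAEL004978. None of the tested markers was called, where 4.63% of all tested genes were. The part of the markers in the PGRP values was not tested.

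**Figure D4:**
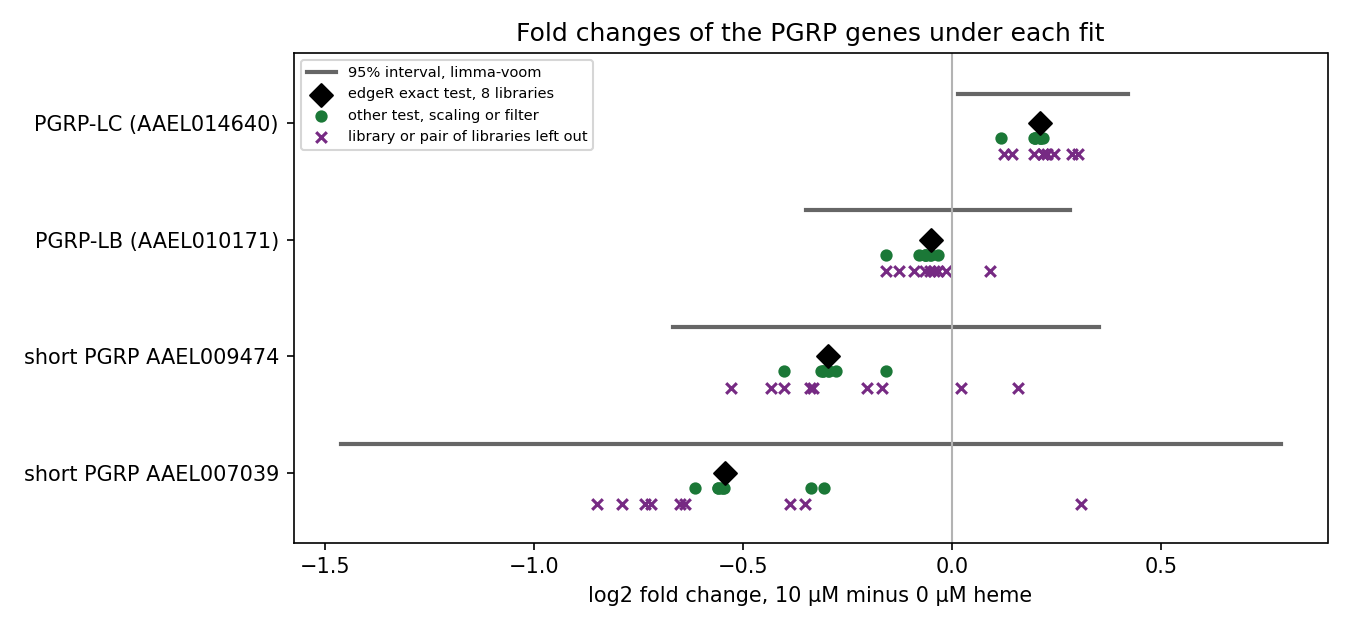
Log2 fold change of each PGRP (10 µM minus 0 µM heme) in the edgeR exact test on 8 libraries (black diamonds), under other tests, scalings and filters (green), and with a library or the pair of libraries left out (purple crosses), with the 95% interval of limma-voom as a grey bar. PGRP-LC stays above 0 in every fit (0.12 to 0.30), while the other 3 each cross 0 when a library is left out.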

How the data were processed

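Per the study's methods and the submitters' processing notes, HISAT2 2.1.0 placed the single-end reads on AaegL5, SAMtools dropped poorly mapped ones, and BEDtools 2.19.1 gave the number per transcript. How strand and reads shared by several genes were treated in counting is not stated in these sources, so overlapping or closely similar genes are uncertain. The deposited values are raw counts, not normalized. Of 19712 identifiers, 1981 were at 0 in every library and 0 matched the RefSeq gene table of AaegL5.0, so no positions, lengths or sequences are given.

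Genes were kept by filterByExpr, which left 11095, scaled by TMM and tested, after the study's methods, by edgeR's exact test (version 4.0.16, R 4.3.3), two-sided, with Benjamini-Hochberg adjustment over all genes tested. At an adjusted p of 0.05 the study reported fewer midgut genes than the 514 called here, and the reason was not examined. The SE is that of the difference in mean log2 CPM (prior count 2). Intervals come from limma 3.58.1 voom with quality weights and belong to its own estimates, not to those of the exact test. DESeq2 1.42.0 and the quasi-likelihood test were alternatives. On simulated data the exact test and DESeq2 gave more false calls than the adjusted p allows, and more than the quasi-likelihood test and limma-voom did. The replicate block was not simulated. The PGRPs and lists were chosen with earlier results of these data known. All 4 PGRPs, the 2 most similar genes of each, called list genes and AAEL009496 were named by rule. Nothing in the labels names a shared culture or day, so p-values measure the spread between these pools.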

Additional observations from a re-analysis of the deposited data

Results flagged for a closer look

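In 10 groups of 4 values, covering the 4 PGRPs and AAEL003832, 2 had an extreme library by Dixon's criterion (gap to its neighbour over the whole range, 95% level), where chance gives about 0.5. For PGRP-LC it was 10 µM heme replicate 1, at 74.3 CPM beside 59.7 to 62.1 CPM in the other heme-exposed libraries, with a gap of 0.836 of the range. This library had the lowest TMM factor of the 8, 0.848, which raises its CPM. Its PGRP-LC count was 3378, below the 3464 and 3639 of 10 µM heme replicates 2 and 4. Relative to AAEL009496 its value of 3.61% lay within the 3.31% to 3.99% of the other heme-exposed libraries. Without that library the log2 fold change of PGRP-LC was 0.12 (edgeR exact test, adjusted p = 0.869). For AAEL003832 the extreme library was the same, at 0.990 CPM beside 0.739 to 0.748 CPM in the other heme-exposed libraries, still below all 0 µM libraries. Its count there was 45, the same as in 10 µM heme replicate 4, beside 42 and 36 in 10 µM heme replicates 2 and 3. This flag therefore rests on few reads and on the low TMM factor of that library.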

How the results depend on the processing

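The count of PGRPs called was 0 in all 17 alternatives, with adjusted p of 0.123 to 1.0. PGRP-LC kept its direction throughout. Leaving out 1 library gave log2 fold changes of 0.12 to 0.29 for PGRP-LC, -0.16 to 0.090 for PGRP-LB, -0.53 to 0.022 for AAEL009474 and -0.85 to 0.31 for AAEL007039, and the sign turned without 10 µM heme replicate 4 (PGRP-LB, 0.090), 0 µM heme replicate 1 (AAEL009474, 0.022) and 0 µM heme replicate 3 (AAEL007039, 0.31). Without 0 µM heme replicate 1 and 10 µM heme replicate 2, PGRP-LC was at 0.30, its highest value in any fit (edgeR exact test, adjusted p = 0.391). In that fit PGRP-LB was at -0.052 (adjusted p = 0.976), AAEL009474 at 0.16 (0.888) and AAEL007039 at -0.65 (0.689). All genes called numbered 514 in the exact test, 316 in the quasi-likelihood test and 333 to 549 with 1 library left out (333 without 10 µM heme replicate 3). DESeq2 called 2 of the IMD and Toll list. Of the peptide list, 2 were called by DESeq2, with library totals, and without 0 µM heme replicate 2 or 3, for a range of 1 to 2 with 1 library left out. The second was AAEL003857, except without 0 µM heme replicate 2, where it was AAEL004522. The causes were not tested.

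The libraries were treated as unpaired. Deviations from the group means, compared between libraries that share a number, gave correlations of 0.515 (replicate 1), 0.0702 (replicate 2), 0.0616 (replicate 3) and 0.157 (replicate 4) across genes, which are not independent, and only replicate 1 correlated best with its own number in both groups. When the number entered the quasi-likelihood test as a replicate block, 725 genes and 0 PGRPs were called, with log2 fold changes of 0.21 for PGRP-LC (adjusted p = 0.123), -0.079 for PGRP-LB (0.798), -0.28 for AAEL009474 (0.396) and -0.31 for AAEL007039 (0.593).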
